A study of Mus musculus with 2 samples.

Results

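The sort for CD45+CD11b+ myeloid cells of the arthritic mouse synovium also held 210 cells with the transcripts of connective tissue, 2.05% (1.78% to 2.34%) of the 10249 cells kept. A cell was kept if it had at least 500 genes and at most 10% of its UMIs (unique molecular identifiers, each standing for 1 captured transcript) from mitochondrial genes. It was taken as stromal if at least 4 of the 8 genes *Igfbp7*, *Plpp3*, *Nfib*, *Tgfbr3*, *Hspg2*, *Col1a2*, *Col3a1* and *Pdgfra* had a UMI, if *C1qa*, *C1qb* and *C1qc* together had fewer than 10 UMIs, and if the endothelial genes *Cdh5* and *Emcn* had none. The levels of these 13 genes therefore chose the cells and are given only as a description.

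Synovial fibroblasts build the lining and the supporting layer of the joint capsule. Lining fibroblasts secrete lubricin and hyaluronan into the joint fluid, and fibroblasts of the layer below make fibrillar collagens and surround vessels and nerves. In arthritis, fibroblasts are known to secrete chemokines, matrix-degrading enzymes and regulators of osteoclasts, the bone-resorbing cells that arise from myeloid precursors. Fibroblasts are not known to carry CD45 (encoded by *Ptprc*) or CD11b (*Itgam*), the proteins on which the sort was gated.

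The study asked how a single exposure to β-glucan, an agonist of trained innate immunity, alters the joint during a later arthritis. C57BL/6 mice of 7 to 10 weeks received β-glucan or PBS 7 days before arthritis was induced, and hind paw synovium was sorted 17 days after induction. The series' design text and the study name K/BxN serum transfer as the inducer, whereas the samples' protocol describes a cocktail of arthritogenic antibodies followed by lipopolysaccharide; both groups were treated alike. Each group was 1 pool of 4 mice and 1 library, so that no value had a replicate, no test between the groups was possible, and a difference between treatments cannot be told apart from one between pools or libraries.

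The β-glucan library held 7196 barcodes and 81611849 UMIs, and the PBS library held 5760 barcodes and 73874602 UMIs. After filtering, 126 of 5696 β-glucan cells (2.21%, 1.85% to 2.63%) and 84 of 4553 PBS cells (1.84%, 1.47% to 2.28%) were stromal. These are exact Clopper-Pearson 95% intervals, which overlapped, and like all intervals here they cover counting error only. Their UMIs summed to 2163835 (β-glucan) and 1596759 (PBS). Their median depth was 15730.5 UMIs and 4327.5 genes per cell with β-glucan, against 18951.5 UMIs and 4738 genes with PBS. A like gap was present among all kept cells, whose medians were 12457.5 and 14475 UMIs. The 2 libraries shared 7 barcodes, none of them of a stromal cell.

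Most stromal cells lay far inside the limits of the rule. All 8 genes had a UMI in 84 of the β-glucan and 60 of the PBS stromal cells. Just inside the limit, 7 and 8 cells had 4 of the 8 genes, and just outside it 2 and 3 cells had 3 genes. The highest C1q sum among stromal cells was 6 UMIs (β-glucan) and 5 UMIs (PBS). The lowest sum among the cells left out for C1q was 10 and 23 UMIs. No C1q UMI at all was found in 108 of the 210 cells.

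The label was checked against markers that the rule did not use. Levels are given as CPM, the UMIs of a gene summed over a set of cells and scaled to 1000000 UMIs of that set. Since 3′ libraries count transcripts by 1 end, CPM needs no division by gene length. *Dcn*, which encodes the collagen-binding proteoglycan decorin, had a UMI in 83.3% of β-glucan and 88.1% of PBS stromal cells. In macrophage-rule cells (a C1q sum of at least 10 UMIs and fewer than 4 of the 8 stromal genes, 7466 cells in all) it was present in 12.6%. *Col1a1*, the α1 chain of type I collagen, reached 11058 CPM (β-glucan) and 10032 CPM (PBS) in stromal cells and 6.22 CPM in macrophage-rule cells. Of a list of 8 fibroblast markers, the 5 that the rule did not hold, with *Dcn* the most abundant, summed to 31502 and 27084 CPM, and to 24.7 and 20.3 CPM in macrophage-rule cells. All 5 were present. Endothelial markers summed to 4.16 and 1.88 CPM, with *Tie1* and *Cldn5* at 0 beside the *Cdh5* and *Emcn* that the rule set to 0.

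Transcripts of the 2 sort markers were scarce. *Ptprc* had a UMI in 11 of 126 β-glucan (8.73%) and 10 of 84 PBS (11.9%) stromal cells, at 12.5 and 23.2 CPM, whereas 97.2% of macrophage-rule cells had one, at 536 CPM. *Itgam* had a UMI in 7.94% and 8.33% of stromal cells. In lymphocytes, where *Itgam* is usually low, it had one in 10.2% and 9.01% of B-rule cells (2 or more of 4 B cell markers, median depths of 5433 and 5947 UMIs) and in 11.2% and 9.23% of T-rule cells (2 or more of 4 T cell markers, 7683 and 9070 UMIs). The share in stromal cells was no higher than in these lymphocytes. They came from the same CD11b sort, however, so they are not a reference known to lack *Itgam*. Both transcripts together were found in 4 stromal cells.

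Macrophage transcripts were present at a low level. *Lyz2*, lysozyme, the most abundant gene of the 9 macrophage markers, was found in 61.1% and 61.9% of stromal cells but at 60.5 and 125 CPM, against 11510 and 12226 CPM in macrophage-rule cells. B-rule cells held it in 57.5% and 50.0%. The whole macrophage list, with 8 (β-glucan) and 9 (PBS) of 9 genes detected, summed to 125 and 189 CPM, against 22084 and 22893 CPM in macrophage-rule cells. It includes *C1qa*, *C1qb* and *C1qc*, which the rule kept low in stromal cells and which chose the macrophage-rule cells. This gap was thus partly set in advance. Pan-immune genes, 7 of 7 detected and led by *Tyrobp*, summed to 70.2 and 123 CPM, against 5015 and 5114 CPM. The macrophage and pan-immune genes together, the limited C1q genes among them, gave a median of 0.0147% of a stromal cell's UMIs and at most 1.0%. Neutrophil markers, 5 of 5 detected and led by *S100a9*, differed more between the libraries, at 331 CPM (β-glucan) and 92.1 CPM (PBS) in stromal cells and 369 and 150 CPM in macrophage-rule cells. Their part in the differences below was not tested.

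**Figure D1:**
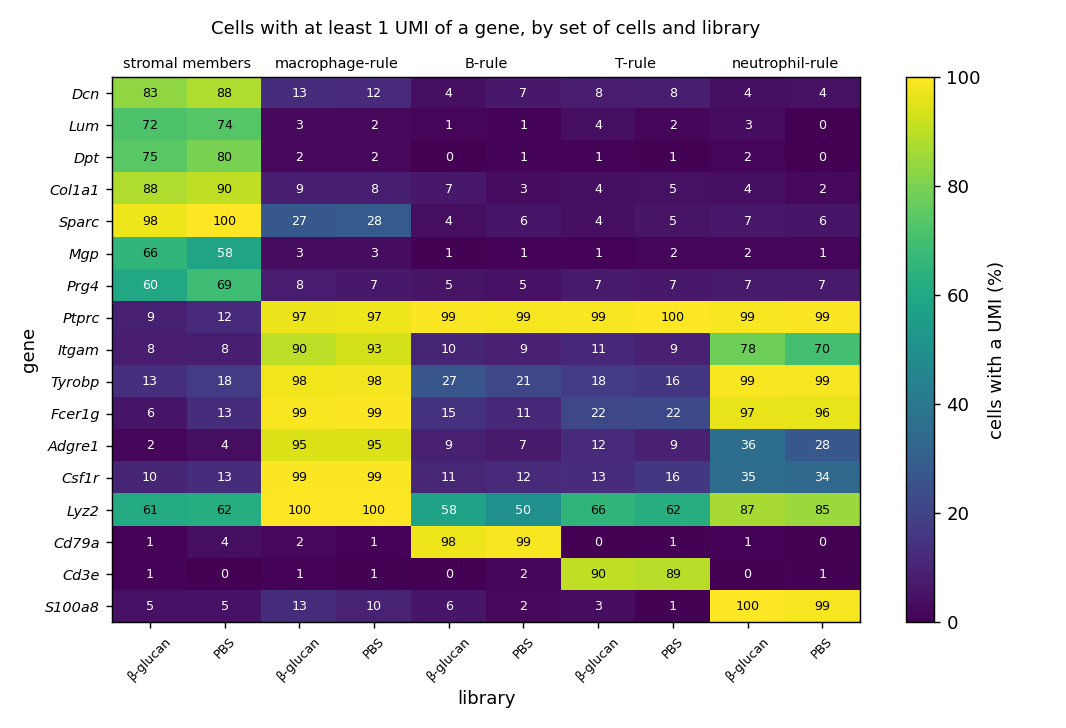
Share of cells with at least 1 UMI of each gene (rows), for stromal, macrophage-rule, B-rule, T-rule and neutrophil-rule cells of each library (columns), with the percentage printed in each square. *Dcn* was found in 83.3% and 88.1% of stromal cells, and *Ptprc* in 8.73% and 11.9%.

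Matrix genes were among the most abundant of the stromal transcriptome. Beside the nuclear RNA *Malat1* and mitochondrial genes, the most abundant genes over both libraries were *Dcn* (12960 CPM), *Col1a1* (10622), *Gsn* (10579), *Col3a1* (10354), *Col1a2* (9554), *Sparc* (7938) and *Prg4* (6173). *Gsn* encodes gelsolin, which severs actin filaments, *Sparc* a collagen-binding protein, and *Prg4* lubricin, the boundary lubricant of joints. Next came 4 genes that do not encode structural matrix proteins, *S100a6* (4623 CPM), *Cmss1* (4482), *Tpt1* (4466) and *Cst3* (4462). *Fn1*, fibronectin, was at 3849 CPM, and *Mgp*, matrix Gla protein, an inhibitor of calcification, at 3577 CPM. Most of these differed little between the libraries, with log2 ratios of β-glucan over PBS of 0.14 for *Col1a1* and 0.19 for *Fn1*. *Gsn* stood at 7992 CPM in the β-glucan and 14086 CPM in the PBS library, a log2 ratio of -0.82 (-0.85 to -0.79). It was past the 1.5-fold limit used below, and no single cell gave more than 6.30% of its UMIs in either library.

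Against the macrophage-rule cells, the 1296 genes with at least 500 UMIs in stromal cells were ranked by the log2 ratio of their levels. These ratios are a description, since the cells were chosen on related genes. *Col11a1* (chr3:113824134-114014367, GRCm39), a fibrillar collagen of cartilage, ranked highest and had 289 CPM in stromal and 0.0503 CPM in macrophage-rule cells, a log2 ratio of 12.49. It was followed by *Cilp*, a cartilage matrix protein (998 and 0.277 CPM, 11.82), *Ptn*, the growth factor pleiotrophin (417 and 0.117 CPM, 11.80), and *Lama2*, a laminin chain (590 and 0.168 CPM, 11.78). The list was not uniform among stromal cells. *Wif1*, a secreted Wnt inhibitor, and *Coch*, cochlin, were among the 10 highest but had UMIs in 18 and 7 stromal cells, whereas *Lama2* had them in 160 and the collagen *Col5a2* in 198.

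Stromal cells were not of 1 kind. Ward clustering on 10 principal components of the 1000 most variable genes gave a mean silhouette of 0.299 with 3 sub-clusters, the highest from 2 to 6 (0.204 to 0.270 for the other numbers). Clusters of 144, 36 and 30 cells resulted. The 144 cells expressed fibroblast genes, the 30 were led by *Clic5* and *Prg4*, and the 36 joined smooth muscle, *Mal* and *Pax7* transcripts. A cut into 6, chosen after these were seen, split the 144 cells into 3 and the 36 into 2, and it is used below as a description. Every sub-cluster but the smallest held cells of both libraries. Genes that led sub-clusters also differed between the libraries, so the sizes are given per library without comparison.

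**Figure D2:**
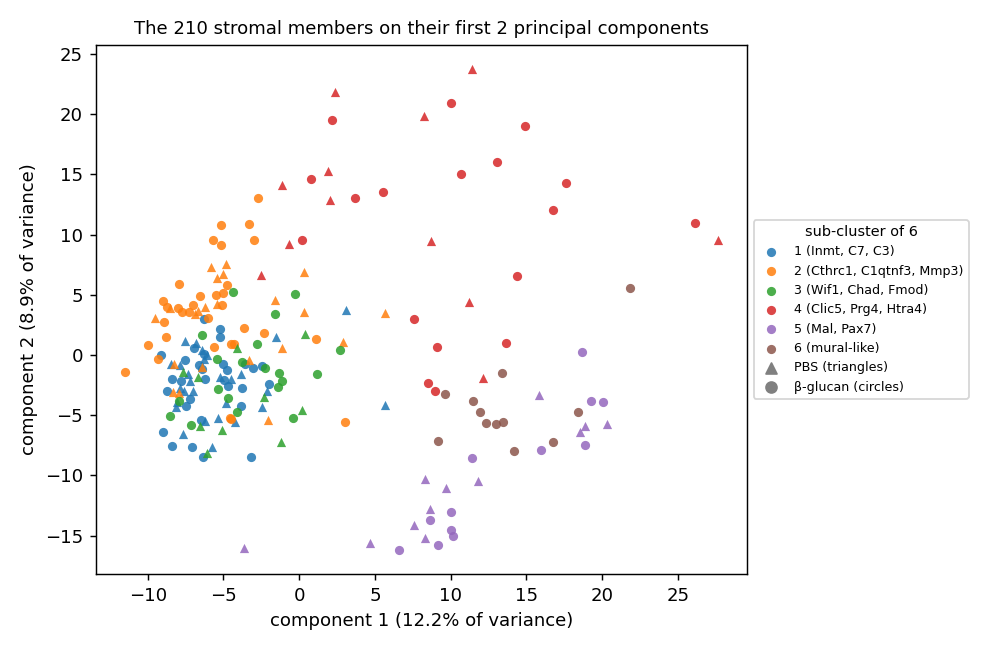
The 210 stromal cells on principal components 1 (12.2% of the variance) and 2 (8.9%), coloured by sub-cluster of 6 and with a separate symbol for each library. The 12 mural-like cells, all of the β-glucan library, and the 24 cells with *Mal* and *Pax7* among their leading genes lie mostly apart from the fibroblast-rich sub-clusters, though some cells of the *Clic5* group lie beside the mural-like cells.

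The largest of the 6, with 59 cells (31 β-glucan and 28 PBS, or 24.6% and 33.3% of each library's stromal cells), was led by *Inmt*, *Agt*, *Ccl11*, *C7* and *C3*. *Inmt* is a methyltransferase and *Agt* encodes angiotensinogen. *Ccl11* (eotaxin-1, a chemokine for eosinophils) had 166 CPM there and 7.42 CPM in the other stromal cells. *C7* and *C3*, complement components, had 366 and 2266 CPM, against 34.3 and 230 CPM. Markers of sublining fibroblasts, such as *Cd34*, *Clec3b* and *Pi16*, summed to 2446 CPM, the highest of the 6, and 5 of 6 were in at least 25% of its cells.

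The second, of 55 cells (33 and 22) and the deepest at a median of 26011 UMIs, was led by *Cthrc1* (943 CPM, against 23.3 CPM elsewhere), *C1qtnf3* and *Mmp3*. *Cthrc1* encodes a secreted protein known from matrix-producing fibroblasts, and *Mmp3* stromelysin, a matrix-degrading protease. *Mmp13*, collagenase-3, was concentrated further, with 367 UMIs from 4 of the 55 cells. *Kera* (keratocan) and *Scx* (scleraxis), tendon markers, were in 23 and 17 of its cells.

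Another fibroblast-rich group, of 30 cells (20 and 10), was led by *Wif1*, *Slurp1*, *Chad* and *Angptl7*, with *Fmod* among its 10 leading genes. *Chad* (chondroadherin) and *Fmod* (fibromodulin), both collagen-binding leucine-rich repeat proteins of cartilage and tendon, had 3083 and 7789 CPM, against 26.5 and 525 CPM in the other stromal cells. All 5 tenocyte markers and 3 of 6 chondrocyte markers were found in at least 25% of its cells, the same counts as in the *Cthrc1* group. These lists summed to 8967 and 10339 CPM here and to 1882 and 1343 CPM in the *Cthrc1* group. *Comp*, cartilage oligomeric matrix protein, was at 7030 CPM. Since both sets of markers were present, the *Wif1* group was given no cell type name.

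The *Clic5* and *Prg4* group held 30 cells (18 and 12). *Prg4* was at 40781 CPM there and 2239 CPM elsewhere, and *Htra4*, a serine protease among the 5 lining markers, at 1089 and 66.3 CPM. Lining markers summed to 44421 CPM, but they were spread unevenly: in the β-glucan library the median cell of this group held 36.5 *Prg4* UMIs and the highest 6648, and in the PBS library the median was 1 and the highest 1525 UMIs. *Col1a1* differed in the other direction between its libraries, at 2143 CPM (β-glucan) and 16818 CPM (PBS). Of its 2226 PBS UMIs there, 1335 came from 1 cell, and the median cell held 18 with β-glucan and 37.5 with PBS. Because of this unevenness, the group was not named as lining fibroblasts.

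The remaining groups were not fibroblasts by their markers. In 24 cells (12 and 12), *Mal*, a membrane protein gene known from myelinating cells, stood beside *Pax7* and *Myf5*, transcription factors of muscle satellite cells. *Mal* had 74 UMIs from 9 cells and *Pax7* had 75 UMIs from 11. These cells were shallow, at a median of 6231.5 UMIs. *Pax7* was found in 6 β-glucan and 5 PBS stromal cells and in 3 other kept cells, all β-glucan.

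The last group was mural-like, mural cells being the pericytes and smooth muscle cells that wrap vessels. All 8 mural markers were found in at least 25% of its 12 cells, and *Rgs5*, *Notch3*, *Mcam* and *Pdgfrb* in all 12. *Myh11*, smooth muscle myosin, was at 3505 CPM, against 31.1 CPM in the other stromal cells, and *Rgs5*, a regulator of G-protein signalling known from pericytes, at 5573 CPM. *Fabp4* and *Adgrf5*, known from endothelium, were also among its 10 leading genes, while the 7 endothelial markers had no UMI in it. Of these markers, *Cdh5* and *Emcn* were set to 0 by the rule. All 12 cells came from the β-glucan library, 9.52% (5.02% to 16.0%) of its stromal cells, and 0 of 84 PBS stromal cells fell in it, which allows a share of up to 3.57% at a floor of 3 counts (4.30% by the exact interval). Counted by markers, a threshold chosen after these values were seen, 15 β-glucan and 0 PBS stromal cells had UMIs of 5 or more of the 8 mural genes. Outside the stromal cells, 1 β-glucan and 2 PBS kept cells met that count, as did 4 and 4 barcodes that failed the cell filter.

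**Figure D3:**
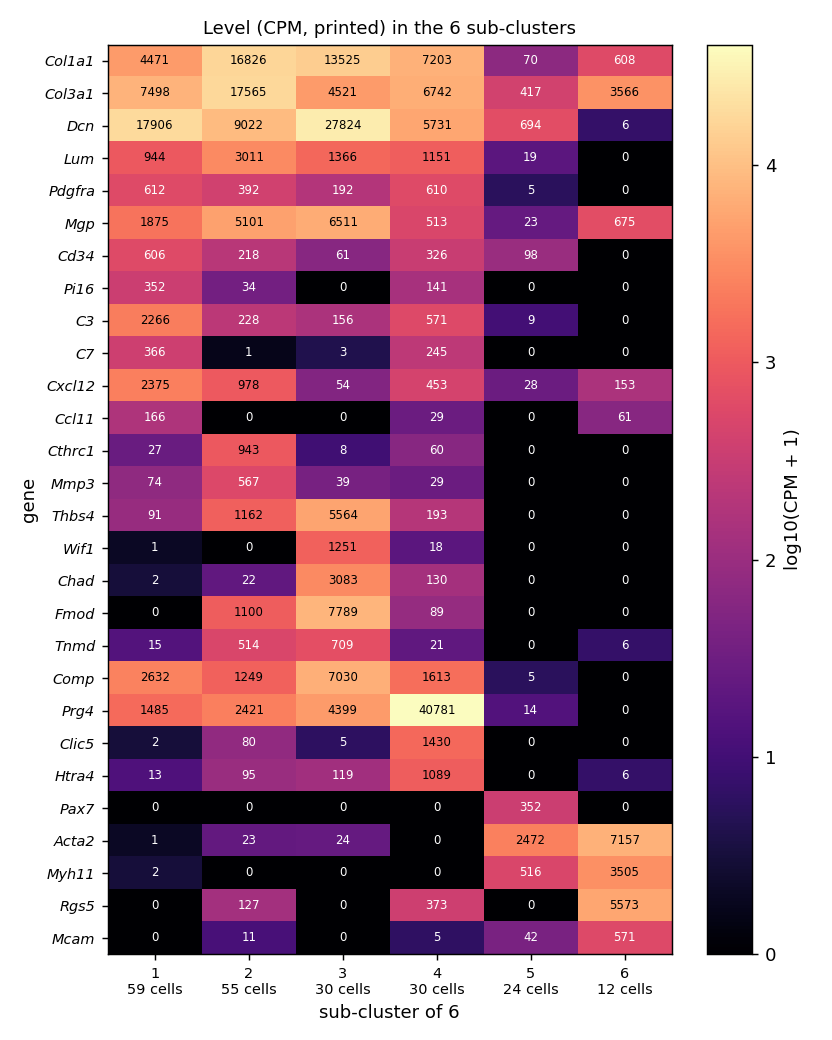
Level in CPM, printed in each square, of marker genes (rows) in the 6 sub-clusters of stromal cells (columns, with the number of cells), summed over both libraries. *Myh11* stands out in the mural-like cells at 3505 CPM and *Prg4* in the *Clic5* group at 40781 CPM.

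Limb patterning genes were found in all 4 fibroblast-containing groups. *Hoxd13*, a homeobox gene of the distal limb, had UMIs in 38, 8 and 19 cells of the *Ccl11*, *Cthrc1* and *Wif1* groups and in 5 of the *Clic5* group. The hindlimb factor *Tbx4* had UMIs in 32, 23, 16 and 11 cells of the same groups, in 1 of the *Mal* and *Pax7* group and in none of the mural-like cells. *Tbx5*, its forelimb counterpart, had 22 UMIs in all, 13 and 9 by library. *Prrx1*, a factor of limb mesenchyme, was present in 57 of 59, 55 of 55, 28 of 30 and 21 of 30 cells of these groups and in 11 of the 12 mural-like cells.

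Between the libraries, stromal cells were compared by the log2 ratio of CPM, β-glucan over PBS, for the 6057 genes with at least 100 UMIs over both. Some collagen and matrix genes were higher in the β-glucan library, and some complement, chemokine and immediate-early genes lower. A gene was called past the fold when its ratio was at least 1.5 in either direction with an exact 95% counting interval that left out 0. By this rule 371 genes (6.13%) were higher and 249 genes (4.11%) were lower in the β-glucan library, and the median over all 6057 genes was -0.03. A sum over cells cannot tell more cells of a kind from more transcript per cell. Values are therefore also given for the fibroblast-rich cells, the 102 β-glucan and 72 PBS cells left without the mural-like and the *Mal* and *Pax7* cells, among which 263 genes were higher and 251 lower by the same rule. In 454 of the 620 genes past the fold, 1 cell held more than 10% of the UMIs in a library. Without them, 80 genes were higher and 86 lower, and the genes named next are the 10 at each end among these.

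The highest was *Fam126b*, a homologue of hyccin, at 45.3 CPM in the β-glucan and 20.04 CPM in the PBS library, from 55 of 126 and 23 of 84 cells. Its log2 ratio was 1.18 (0.59 to 1.80), 1.13 in the fibroblast-rich cells and 0.14 in macrophage-rule cells. *Gab2* (chr7:96730793-96958153), a docking adaptor of growth factor receptors, was at 292 and 152 CPM. Its ratio was 0.94 (0.72 to 1.16), 0.96 in fibroblast-rich cells and -0.00 in macrophage-rule cells. *Gab2* was higher in the β-glucan library in each of the 4 fibroblast-containing sub-clusters, at 315 and 173 CPM in the *Ccl11* group, 250 and 113 in the *Cthrc1* group, 299 and 155 in the *Wif1* group and 390 and 234 in the *Clic5* group. *Mtor*, the growth-controlling kinase, was at 55.0 and 28.2 CPM, with a ratio of 0.96 (0.46 to 1.49) and of 0.97 in the fibroblast-rich cells. With cells thinned to 4000 UMIs, *Fam126b* and *Mtor* lost their calls.

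The muscle-type genes among the 10 had lower ratios once the mural-like and the *Mal* and *Pax7* cells were left out. *Cald1*, caldesmon, an actin-binding regulator of contraction, was at 511 CPM (β-glucan) and 267 CPM (PBS), a ratio of 0.94 (0.78 to 1.10), which became 0.10 (-0.09 to 0.29) in the fibroblast-rich cells. It reached 2909 CPM in the mural-like cells. *Cacna1c*, the pore subunit of the L-type calcium channel, went from 1.06 (0.86 to 1.27) to 0.42 (0.20 to 0.65) in the same way. The ratios of *Tcf7l1*, a Wnt pathway transcription factor (0.94), and *Fgd4*, an activator of the small GTPase Cdc42 (0.91), were also high in macrophage-rule cells, at 0.88 and 0.90. *Mtss2* (0.95), which shapes the cell membrane, the flippase-family gene *Atp9a* (0.87) and the inositol phosphatase gene *Inpp5k* (0.87) complete the 10. In the fibroblast-rich cells *Atp9a* was at 0.54 (-0.10 to 1.20), no longer past the fold. Each of the last 3 had 31 to 33 UMIs in the PBS library. These 3 and *Fgd4* lost their calls with thinned cells.

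*Sgk1* (chr10:21758083-21875802), a kinase induced by serum and glucocorticoids, had the lowest ratio of the genes named by this rule. It was at 95.7 CPM in the β-glucan and 249 CPM in the PBS library, and had a UMI in 49.2% and 76.2% of cells. The ratio was -1.38 (-1.63 to -1.14), -1.27 in the fibroblast-rich cells and -0.27 in macrophage-rule cells. *Sgk1* was lower with β-glucan in each of the 5 sub-clusters that held both libraries, at 32.2 against 183 CPM in the *Ccl11* group, 117 against 273 in the *Cthrc1* group, 126 against 378 in the *Wif1* group, 143 against 219 in the *Clic5* group and 67.5 against 222 in the *Mal* and *Pax7* group. *Per1*, a repressor of the circadian clock and like *Sgk1* a known glucocorticoid target, was at 24.03 and 48.8 CPM, a ratio of -1.02 (-1.56 to -0.50). In macrophage-rule cells its ratio was -0.95. With a stricter cell filter (1000 genes, 5% mitochondrial) the stromal ratio was -0.49 (-1.09 to 0.11), no longer past the fold. Of 3 other such targets, which were chosen for mention after their values were seen, *Fkbp5* was at 146 and 187 CPM (-0.36), *Tsc22d3* at 206 and 243 CPM (-0.24) and *Klf9* at 492 and 542 CPM (-0.14), none of them past the fold.

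*Cd34* (chr1:194621029-194647172), the sialomucin that marks part of the sublining fibroblasts, was at 190 and 411 CPM, in 77 and 58 cells. Its ratio was -1.11 (-1.29 to -0.93) and -1.01 in the fibroblast-rich cells. It was lower with β-glucan in the *Ccl11* group (456 against 721 CPM), where 29 of 31 and 27 of 28 cells had a UMI, and in the *Clic5* group (147 against 665 CPM). *Tmem100*, a transmembrane protein, was at 98.0 and 199 CPM, a ratio of -1.02. In macrophage-rule cells it was scarce, at 0.34 and 0.24 CPM, with a ratio of 0.51 (-0.54 to 1.62). *Nova1*, a neuronal-type splicing regulator, was at 117 and 227 CPM (-0.95). *Copg2*, a subunit of the vesicle coat complex COPI, had 53 and 79 UMIs and a ratio of -1.01 (-1.54 to -0.49), which was 0.092 with cells thinned to 4000 UMIs. *Hspb11* (-0.97), *H2-T23* (-0.96), *Pcbp4* (-0.95) and *Lrrn4cl* (-0.94) followed. The calls of *Hspb11* and *H2-T23* were lost with thinned cells. *H2-T23*, a non-classical MHC class I gene, has near-identical relatives that could share its reads, and its ratio in macrophage-rule cells was -0.45.

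**Figure D4:**
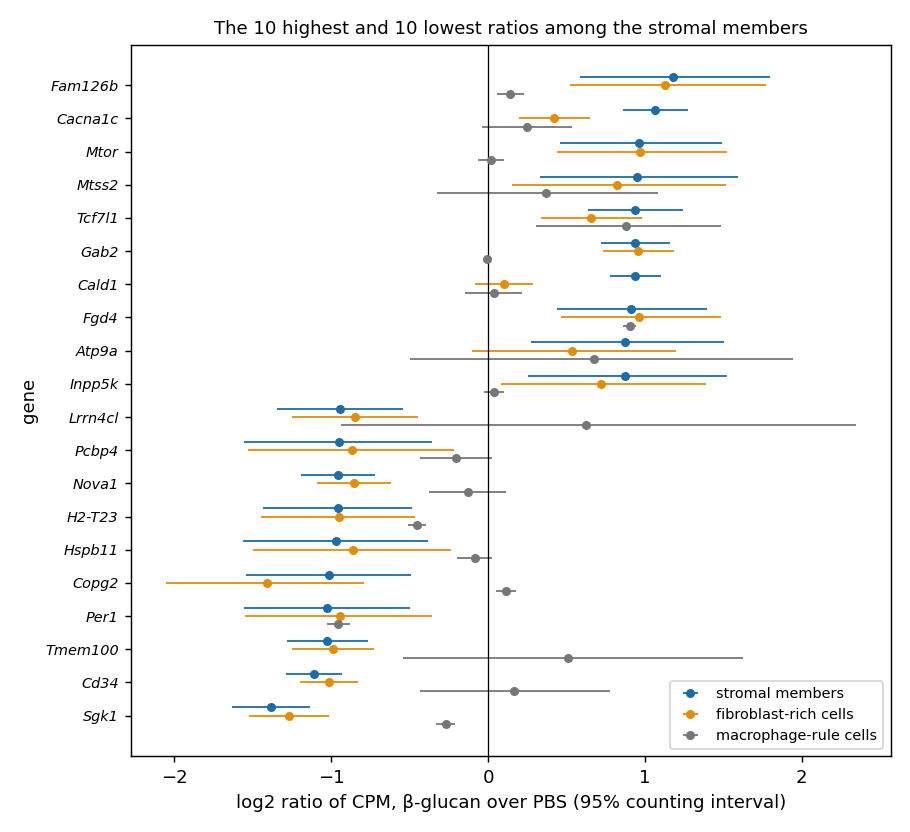
Log2 ratio of CPM, β-glucan over PBS, of the 10 highest and 10 lowest genes by the stated rule (points with bars for the 95% counting interval), with the ratio in macrophage-rule cells and in the fibroblast-rich cells beside it. *Cald1* moves from 0.94 to 0.10 without the mural-like and *Mal* and *Pax7* cells, while *Sgk1* stays at -1.27.

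The lists described next held 32 genes past the fold, and in 27 of these 1 cell gave more than 10% of the UMIs in a library. Of 15 collagens, 5 were past the fold upward, beside 6.13% of all genes, and none downward, with a median log2 ratio of 0.21. The list includes *Col1a2* and *Col3a1*, which the rule used and which are given as a description. The fibrillar collagens of highest level were not among those past the fold: *Col3a1* was at 10385 and 10312 CPM (0.01), and *Col1a1* had a ratio of 0.14. *Col12a1*, which associates with collagen fibrils in dense tissue, was at 238 CPM (β-glucan) and 106 CPM (PBS), a ratio of 1.16 (0.91 to 1.42). It was higher with β-glucan in the *Cthrc1* group (393 against 165 CPM) and the *Wif1* group (414 against 179 CPM), and in the *Clic5* group it was lower (15.9 against 106 CPM, from 4 and 14 UMIs). The *Ccl11* group held 0 and 10 UMIs of it, and the *Mal* and *Pax7* group 2 and 4. *Col4a1* and *Col4a2*, the chains of basement membrane collagen, were at 506 and 276 CPM (0.87) and at 372 and 214 CPM (0.79). Part of that came with the mural-like cells, in which *Col4a1* was at 1350 CPM, and the ratios in fibroblast-rich cells were 0.71 and 0.47. *Col8a1* (0.78) and *Col15a1* (0.62) were the others. *Col15a1* lost its call under 5 of 11 other settings (down to 0.03 with equal weight per sub-cluster), *Col4a2* in the fibroblast-rich cells and *Col4a1* with thinned cells.

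Among 22 matrix glycoproteins and proteoglycans, *Eln*, *Mgp*, *Prg4* and *Thbs1* were higher past the fold, beside 6.13% of all genes, and none lower. The median was 0.07, with 15 of the 22 above 0, against 0.15 and likewise 15 in macrophage-rule cells. *Mgp* (chr6:136849433-136852821) was at 4885 CPM in the β-glucan and 1804 CPM in the PBS library, in 83 and 49 cells. Its ratio was 1.44 (1.38 to 1.50) and 1.54 in the fibroblast-rich cells, against 0.15 in macrophage-rule cells. *Mgp* was higher with β-glucan in the *Cthrc1* group (7356 against 2110 CPM) and the *Wif1* group (8501 against 2832 CPM), and near level in the *Ccl11* group (2035 against 1752 CPM). The median *Cthrc1*-group cell held 126 *Mgp* UMIs with β-glucan and 28.5 with PBS.

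*Prg4* (chr1:150325163-150342009) was at 8346 and 3229 CPM, a ratio of 1.37 (1.33 to 1.42), but had a UMI in 59.5% of β-glucan and 69.0% of PBS stromal cells. A single cell held 36.8% of its UMIs in the β-glucan and 29.6% in the PBS library. Outside the *Clic5* group it took no single direction, at 1838 against 3195 CPM in the *Cthrc1* group, 4300 against 4580 in the *Wif1* group and 1951 against 1128 in the *Ccl11* group. In the *Ccl11* group 1 cell held 580 of the 787 β-glucan UMIs, and the median cell held 1 UMI with β-glucan and 4 with PBS. The medians were 9 and 5.5 UMIs in the *Cthrc1* group and 57.5 and 67.5 in the *Wif1* group. *Eln*, elastin, was at 267 and 69.5 CPM (1.94), with 22.2% and 39.6% of UMIs in 1 cell. The mural-like cells held 207 of its 577 β-glucan UMIs, and its ratio in the fibroblast-rich cells was 1.38. The last of the 4 was *Thbs1*, thrombospondin-1, at 178 and 76.4 CPM (1.22).

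Of 18 matrix enzymes and their inhibitors, *Timp3*, an inhibitor of metalloproteinases held in the matrix, was the one past the fold, beside 6.13% of all genes upward, at 537 and 232 CPM. Its ratio of 1.21 became 0.36 in the fibroblast-rich cells, and it stood at 3542 CPM in the mural-like cells. *Mmp2* (gelatinase A) was at 1468 and 1254 CPM (0.23), *Mmp14*, the membrane-bound collagenase, at 514 and 575 CPM (-0.16), and *Mmp3* at 261 and 237 CPM (0.14). *Mmp13* came from 4 and 2 cells, with 62.4% and 99.5% of its UMIs in 1 of them.

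Of the chemokines and cytokines that could be compared, all but *Cxcl12* were lower, though *Il1b* and *Cxcl10* rested on few cells. Of 19 inflammatory cytokines and chemokines 5 had 100 UMIs, of which 4 were past the fold downward, beside 4.11% of all genes. *Cxcl14*, a chemokine of tissue fibroblasts, was at 441 CPM (β-glucan) and 871 CPM (PBS), a ratio of -0.98 (-1.10 to -0.86). It was lower in the *Ccl11* group (1291 against 1946 CPM), the *Wif1* group (409 against 867 CPM) and the *Clic5* group, and higher in the *Cthrc1* group (304 against 226 CPM). In the *Wif1* group 145 of the 179 PBS UMIs came from 1 cell, and the median cell held 3 UMIs with β-glucan and 0.5 with PBS. *Ccl11* was at 22.6 and 78.9 CPM, in 16 and 16 cells, a ratio of -1.80 (-2.31 to -1.31). It was lower in macrophage-rule cells as well, at -2.83, and in the *Ccl11* group it was at 96.7 against 219 CPM.

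The other cytokines rested on few cells. *Il1b* (-0.62), a cytokine of myeloid cells, had UMIs in 7 and 4 stromal cells. Its ratio took the other sign under a stricter cell filter (0.0036), with equal weight per cell (0.38) and without the cells highest in immune markers (0.87). All 270 *Cxcl10* UMIs of the PBS library came from 1 cell, which also gives no view of a group. *Il6* had 48 UMIs in 3 β-glucan cells, 85.4% of them in 1, and none in the PBS library. *Cxcl12*, the ligand of CXCR4 and the most abundant chemokine, was at 1114 and 929 CPM (0.26), not past the fold. It was higher with β-glucan in the *Ccl11* (2917 against 1960 CPM) and *Cthrc1* groups (1242 against 627 CPM). The median cells of these groups held 12 and 9 *Cxcl12* UMIs with β-glucan and 15.5 and 10 with PBS. In the *Cthrc1* group 1 cell held 362 of the 1050 β-glucan UMIs.

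Regulators of osteoclasts were of interest because the study dealt with bone loss. *Tnfsf11*, RANKL, the cytokine that drives osteoclast formation, had 4 UMIs in 3 β-glucan cells and 10 UMIs in 4 PBS cells, too few for a comparison. *Csf1*, the growth factor of osteoclast precursors, was at 113 and 164 CPM, a ratio of -0.54 (-0.79 to -0.29) that did not reach the fold. *Il34*, the other ligand of the CSF1 receptor, was at 58.7 and 8.14 CPM, a ratio of 2.85 (2.02 to 3.80). Of its 127 and 13 UMIs, 85 came from the mural-like cells, where it was at 522 CPM, and the ratio in the fibroblast-rich cells was 1.18. *Tnfrsf11b*, osteoprotegerin, the decoy receptor of RANKL, had 88 and 29 UMIs (1.16), of which 1 cell held 69.3% and 58.6%. Among cells matched on long genes its ratio was -0.12, and with equal weight per cell its call was lost. The Wnt regulators *Sfrp1*, *Sfrp2*, *Sfrp4*, *Dkk2* and *Dkk3* had ratios from -0.21 to 0.38, none past the fold.

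Most complement genes had ratios below 0. Of 8 compared, 3 were past the fold downward, beside 4.11% of all genes, and none upward. Ratios were below 0 for 7 of them, at a median of -0.38, against 6 and -0.09 for the same genes in macrophage-rule cells. *C3*, the central component, was at 518 and 1024 CPM, a ratio of -0.98 (-1.09 to -0.87). Within the *Ccl11* group, which held most of it, *C3* was at 2067 against 2418 CPM, and in the *Clic5* group at 127 against 1413 CPM. *C7*, a part of the membrane attack complex, was at 68.4 and 181 CPM, from 16 and 17 cells (-1.40). In the *Ccl11* group it was at 335 against 390 CPM, and 3 PBS cells of the *Clic5* group held it at 627 CPM. *Cfb*, factor B, was at 19.4 and 44.5 CPM (-1.20). The call of *C7* was lost with equal weight per cell and with thinned cells, and that of *Cfb* with thinned cells. *Serping1*, the C1 inhibitor, had a ratio of -0.21 and was not past the fold. *Pi16*, a marker of *Cd34*-positive fibroblasts, was at 36.1 and 222 CPM (-2.62), with 49.7% of the PBS UMIs in 1 cell. It was lower in the *Ccl11* group, at 76.8 against 563 CPM, but 1 PBS cell held 176 of the 296 PBS UMIs there. The median cell of that group held 0 *Pi16* UMIs with β-glucan and 1 with PBS.

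Immediate-early genes, which respond quickly to many stimuli, tissue dissociation among them, had ratios below 0 in 16 of 18 cases, with a median of -0.39. In macrophage-rule cells 14 of the 18 were below 0, with a median of -0.21. Past the fold downward were 3, beside 4.11% of all genes: *Zfp36*, a factor that destabilises cytokine mRNAs (109 and 234 CPM, -1.10), *Klf4*, a zinc finger transcription factor (398 and 710 CPM, -0.83), and *Nr4a1*, an orphan nuclear receptor (47.6 and 75.2 CPM, -0.66). *Klf4* was lower with β-glucan in each of the 5 sub-clusters that held both libraries, from 491 against 980 CPM in the *Ccl11* group to 733 against 857 CPM in the *Wif1* group. *Zfp36* was lower in the *Ccl11*, *Cthrc1* and *Wif1* groups, where 1 cell held 84 of 148, 48 of 100 and 77 of 96 PBS UMIs. It was higher in the *Clic5* group (139 against 37.8 CPM) and the *Mal* and *Pax7* group (337 against 253 CPM). In the *Clic5* group 1 cell held 26 of its 35 β-glucan UMIs. With equal weight per sub-cluster *Zfp36* was no longer past the fold and *Nr4a1* was at 0.10. *Fos*, at 533 and 534 CPM, was level. In the fibroblast-rich cells all 18 were below 0. Of 8 heat shock genes compared, which respond to cell handling as well, none was past the fold. Ratios were below 0 for 7, as for 3298 of all 6057 genes, at a median of -0.08, and of -0.17 in the fibroblast-rich cells. The part of tissue handling in these differences was not tested.

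Growth factor pathways held genes of both directions. Of 16 TGF-β and BMP genes, *Fst*, the activin antagonist follistatin (1.30), and *Ltbp2* (1.09) were higher and *Id1* (-0.92), *Id3* (-0.73) and *Smad7* (-0.65) lower, at a median of -0.08. These were 2 and 3 of 16, beside 6.13% and 4.11% of all genes. *Smad7* was at 0.16 with thinned cells and under the fold in 4 other settings. *Ltbp2* lost its call with thinned cells and among cells matched on long genes. *Id3* lost its call with equal weight per cell, and *Id1* without the cells highest in immune markers. *Id1* and *Id3* are targets of BMP signalling, and *Id3* was at 212 and 351 CPM. In macrophage-rule cells *Id3* had a ratio of -0.93 and *Id1* of 0.44. *Fst* reached 945 CPM in the mural-like cells, and its ratio was -0.09 in the fibroblast-rich cells. In the IGF axis 2 of 9 genes were past the fold upward, beside 6.13% of all genes. *Igfbp3*, an IGF-binding protein, was at 73.9 and 26.3 CPM (1.49). Of its 160 β-glucan UMIs, 52, 46 and 27 came from 1 cell each. *Pappa*, a protease that cleaves such proteins, was at 38.4 and 16.3 CPM (1.24). Its call was lost with equal weight per cell, with thinned cells and among cells matched on long genes. *Igf1*, which fibroblasts secrete, was at 1050 and 1122 CPM (-0.10).

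Of 14 receptors for growth factors and cytokines compared, *Lifr*, a receptor chain for LIF-family cytokines, was past the fold (68.9 and 40.1 CPM, 0.78), beside 6.13% of all genes upward, at a list median of -0.03. Its ratio in the fibroblast-rich cells was 0.54, under the fold. The call of *Lifr* was also lost with equal weight per cell and with thinned cells. *Il1r1* (195 and 194 CPM), *Tnfrsf1a* (114 and 111 CPM) and *Il6st* (198 and 212 CPM), receptor chains for IL-1, TNF and IL-6, had ratios from -0.10 to 0.03. *Pdgfra*, which the rule used, was at 386 and 416 CPM. Of 22 mesenchymal transcription factors, *Ebf2* (0.77) was higher and *Osr2* (-0.97) lower, beside 6.13% and 4.11% of all genes. *Ebf2* was at 0.45 in the fibroblast-rich cells, under the fold. *Osr2* lost its call with equal weight per sub-cluster and with thinned cells. None of 5 limb position genes and none of 6 listed interferon and MHC class I genes with 100 UMIs was past the fold, with medians of -0.10 and -0.08. That list did not hold *H2-T23*, which was past the fold downward as given above.

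**Figure D5:**
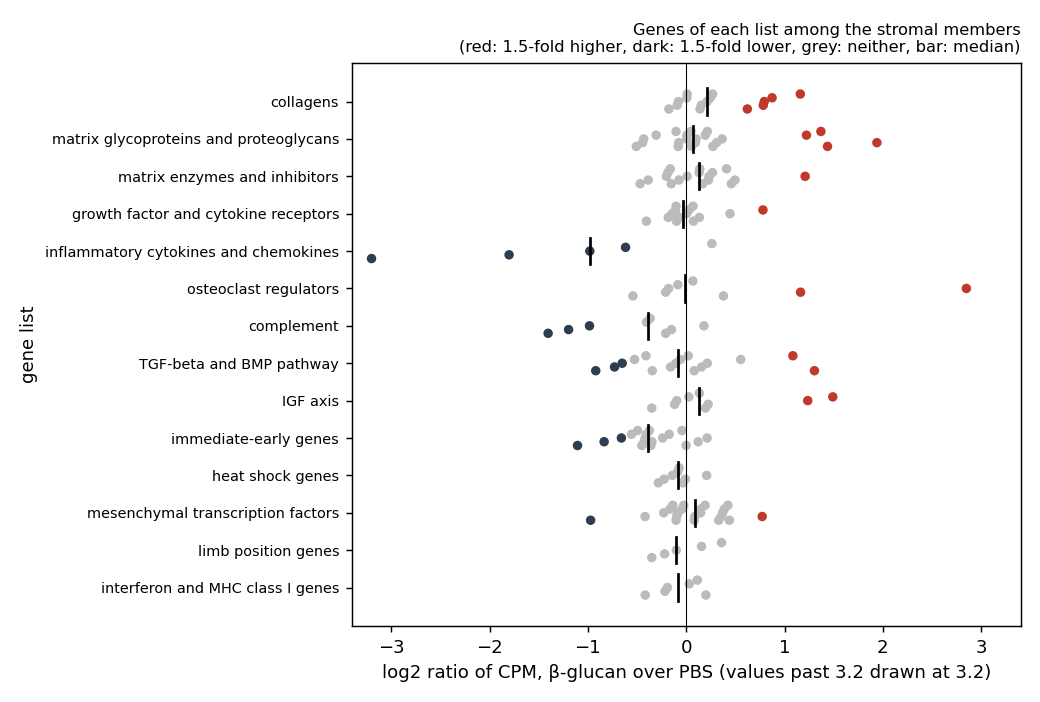
Log2 ratio of CPM, β-glucan over PBS, of the genes compared in each list (points, 1 per gene) with the list's median (bar); red points were at least 1.5-fold higher, dark points at least 1.5-fold lower and grey points neither. *Cxcl10*, whose PBS UMIs came from 1 cell, lies beyond the axis and is drawn at its end, and complement and immediate-early genes lie mostly left of 0, at medians of -0.38 and -0.39.

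Markers of stromal cell types were summed by library. Mural markers summed to 2061 CPM in the β-glucan and 242 CPM in the PBS library, with *Acta2*, smooth muscle actin, at 797 and 11.3 CPM. Of its 1724 β-glucan UMIs, 1166 lay in the mural-like cells and 517 in 1 cell of the *Mal* and *Pax7* group. Lining markers summed to 8979 and 3506 CPM, of which *Prg4* gave most. Apart from *Prg4*, *Clic5* was at 274 and 50.1 CPM (2.45), though 1 cell held 91% of the PBS UMIs. Sublining markers summed to 1203 and 2144 CPM. Tenocyte markers summed to 2809 and 1294 CPM, with *Fmod* at 2202 and 929 CPM (1.24) and *Tnmd*, tenomodulin, at 389 and 226 CPM (0.78). In the *Cthrc1* group *Fmod* was at 1730 against 264 CPM and *Tnmd* at 753 against 198 CPM. In the *Wif1* group *Fmod* was at 8611 against 6270 CPM and *Tnmd* at 526 against 1046 CPM. Chondrocyte, osteoblast and cycling markers were at 3198 and 2784, 226 and 160, and 48.1 and 57.0 CPM. Keratinocyte markers were at 190 and 21.3 CPM, and all 279 *Krt14* UMIs came from 1 cell. Adipocyte and muscle markers were at 183 and 145 CPM and at 44.8 and 31.9 CPM. *Lpl*, which many cell types express, gave most of the former.

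Genes past the fold were also read in macrophage-rule cells of the same libraries, where 32.7% of the 6057 genes had an interval above 0 and 24.8% one below 0. Of the 371 genes higher in stromal cells, 142 (38.3%) had an interval above 0 there and 31 (8.36%) one below 0. Of the 249 lower genes, 91 (36.5%) were below 0 there and 41 (16.5%) above. Longer genes had higher ratios in both kinds of cell: the median was -0.11 for genes spanning under 10 kb, -0.05 from 10 to 100 kb and 0.09 from 100 kb, against -0.09, 0.01 and 0.14 in macrophage-rule cells. Genes of at least 100 kb gave a median of 21.0% of a β-glucan and 19.7% of a PBS stromal cell's UMIs. Of the 10 highest and 10 lowest genes named above, 7 and 3 span at least 100 kb. With 79 stromal cells per library matched on the share of UMIs from such long genes, 249 genes were higher and 295 lower by the rule above, against 371 and 249 without matching. None of the 20 named genes lost its call among these matched cells.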

How the data were processed

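Single-cell RNA-seq libraries (10x Genomics 3′ v3.1) of sorted synovial cells were made as 1 library per group. Per the file headers and the study's methods, the authors aligned reads with Cell Ranger 7.0.0 to GRCm39 with Ensembl 104 genes; the submitters' processing notes also name mm10. The deposited values are raw UMI counts per gene and barcode for 12956 barcodes. Whether intronic reads were counted is not given in the sources used here.

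Cells were filtered and stromal cells chosen by the stated rule in Python 3.11.15 (numpy 2.4.6, scipy 1.17.1, scikit-learn 1.9.0). Counts were summed per library and divided by the library's sum. Since each group was 1 library, no test was run: ratios carry exact (conditional binomial) and levels exact Poisson 95% intervals. The ratio step was tested on counts simulated from a pooled profile. These had counting error but no variation between cells, so the test does not cover genes carried by single cells. The stromal cells, gene lists and thresholds were chosen with earlier results of these data known. Genes named from the comparison are the 10 highest and 10 lowest ratios with at least 100 UMIs, an interval leaving out 0 and no cell over 10% of UMIs in either library, the 13 genes of the rule left out. The 20 most abundant genes, the 20 highest over macrophage-rule cells, markers and list members were also drawn on. Counts and medians of the gene lists kept any genes of the rule that a list held. Leading genes of sub-clusters had at least 50 UMIs and a UMI in 25% of the cells. Gene positions are those of the reference annotation on GRCm39, in which 31870 of 32524 listed genes were found. A marker list and some members of other lists are not reported here. Doublets were not called; 26 cells with both 4 stromal genes and at least 10 C1q UMIs, and 32 with *Cdh5* or *Emcn*, were left out by the rule. Alternatives changed the cell filter, the rule, depth, scaling (TMM by edgeR 4.0.16, R 4.3.3), weighting, UMI minimum and number of sub-clusters.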

Additional observations from a re-analysis of the deposited data

Results flagged for a closer look

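Barcodes that failed the cell filter also met the stromal rule, 26 of 1500 in the β-glucan and 16 of 1207 in the PBS library. Their median mitochondrial share was 22.5% and 18.3% of UMIs, and their median depth 4222.5 and 5954.5 UMIs. They were left out of every value above that describes kept cells. The libraries' barcode and UMI totals covered all barcodes, and the mural marker count was also given for failed barcodes.

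Among the 20 genes named by the rule and 32 other list genes past the fold, 5 were such that the log2 ratio of β-glucan over PBS in stromal cells had the opposite sign to that in macrophage-rule cells, and both intervals left out 0. The differences of ratios, stromal minus macrophage-rule, were not tested, and their intervals cover counting error only. *Copg2* differed by -1.13 (-1.63 to -0.62), from a ratio of -1.01 in stromal cells, which was 0.092 with cells thinned to 4000 UMIs. *Col4a2* differed by 1.59 (1.13 to 2.06), from a ratio of -0.80 in macrophage-rule cells, where this basement membrane gene is scarce. *Thbs1* differed by 1.36 (1.04 to 1.68). *Il1b* differed by -1.80 (-2.20 to -1.41), and stood at 139 and 61.0 CPM in macrophage-rule cells. Its stromal ratio was 0.0036, 0.38 and 0.87 under 3 other settings, and then had no opposite sign. *Cxcl10* differed by -7.59, a value set by the 1 PBS cell that held all its UMIs in that library's stromal cells.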

How the results depend on the processing

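The share of stromal cells stayed within its counting interval under 7 other filters, rules and depths, from 1.999% to 2.25% (β-glucan) and from 1.61% to 1.91% (PBS). Counts past the fold depended most on the UMI minimum and depth. They were 568 higher and 402 lower of 8512 genes at a minimum of 50 UMIs, 191 and 106 of 3609 at 200 UMIs, and 99 and 69 of 1417 with cells thinned to 4000 UMIs (122 and 78 cells). Fewer genes were compared in the latter 2. Under the other settings they ran from 249 to 411 higher and from 212 to 329 lower; TMM scaling, which raised every log2 ratio by 0.04, gave 411 and 212. The largest of 4 sub-clusters held 42.1% and 38.1% of the β-glucan and PBS stromal cells, and that of 6 held 24.6% and 33.3%, against 66.7% and 71.4% of 3. Of the 20 named genes, 19 kept their direction under 11 settings, and 27 of 32 other list genes past the fold did. The call past the fold was lost for 10 of the 20 with thinned cells (*Fam126b*, *Mtor*, *Mtss2*, *Fgd4*, *Atp9a*, *Inpp5k*, *Per1*, *Copg2*, *Hspb11* and *H2-T23*), for *Per1* under the stricter filter below, for *Fgd4* with equal weight per cell, for *Mtss2* and *Fgd4* with equal weight per sub-cluster and for *Cacna1c*, *Cald1* and *Atp9a* in the fibroblast-rich cells, and under the other 6 settings for none. Of the 32, from 0 to 10 lost it under a setting. *Copg2* was at 0.092 and *Smad7* at 0.16 with thinned cells. *Il1b* was at 0.0036 under a stricter cell filter (1000 genes, 5% mitochondrial), at 0.38 with equal weight per cell and at 0.87 in the 94 β-glucan and 63 PBS cells lowest in immune markers. *Nr4a1* was at 0.10 with equal weight per sub-cluster, *Tnfrsf11b* at -0.12 among cells matched on long genes, and *Fst* at -0.086 without the mural-like and *Mal* and *Pax7* cells, an alternative chosen after seeing the data. Beyond the make-up of those cells, the cause was not tested. With 1 library per group, depth limits only counting error: *Tnfsf11* and other genes under 100 UMIs could not be compared. No paired analysis was possible because each group has 1 library.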
